A study of Mus musculus with 12 samples.

Results

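Enzymes of the mevalonate and sterol synthesis pathway were examined in mouse liver. They were Mvk, Pmvk, Mvd, Idi1, Fdft1, Sqle, Lss, Msmo1 and Nsdhl, 9 of the 17742 genes named on the array. Each was found by its symbol or an older synonym (the array names Msmo1 as Sc4mol) and was represented by the probe with the highest mean intensity over the 12 arrays. Of the 9 genes, 7 had 1 probe, Fdft1 had 2 and Pmvk had 3. All 9 enter every count below, because no filter on low values was applied. The 9 genes were chosen with the differences between these groups already known, so their differences are given as a description and support nothing about the pathway as a whole.

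Expression was read from total RNA with 12 Phalanx Mouse OneArray chips (version 2, release 2.1), oligonucleotide arrays with a single dye. The STZ+MENS group was STZ mice that received MENS, a treatment whose name the labels leave as an abbreviation and which was applied through a printed circuit board in daily sessions of 1 h, 5 days a week, for 6 weeks. The STZ group had received streptozotocin, a toxin of the insulin-producing beta cells used to make rodents diabetic, and no MENS. The control group was untreated. All mice carry the label of an age of 8 weeks; strain, sex and streptozotocin dose are not stated there, and no glucose or insulin value was used. Each group held 2 liver samples (n = 2 per group throughout), and each sample was hybridised to 2 arrays. Whether the samples came from separate animals is not stated, so p-values reflect the spread between these samples alone, which may be technical.

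The mevalonate pathway builds isoprenoid units from acetyl-CoA, and the sterol branch joins and cyclises these units into cholesterol. The liver is a main site of this synthesis. Transcription of most of its genes is driven by SREBP2, a membrane-bound factor that Scap escorts out of the endoplasmic reticulum when sterols are low and that Insig proteins hold back when sterols are high. Mvk, Pmvk and Mvd turn mevalonate into isopentenyl diphosphate, and Idi1 interconverts it with its isomer. Fdft1 makes squalene, the committed step to sterols, Sqle oxidises it, and Lss closes it into lanosterol. Msmo1 and Nsdhl then act in the removal of methyl groups from the sterol ring.

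Promoter windows of 3 of these genes are shown because Mvk, Mvd and Nsdhl were the members with the smallest adjusted p between STZ and control livers. They come from RefSeq (mouse build GRCm38.p6), run from 250 bases before to 50 after the annotated start, and are written 5′ to 3′ along the gene's strand. The table held a window for 7 of the 9 genes, and Fdft1 and Sqle are named only. Capitals mark CCAAT on this strand or ATTGG, its reverse complement. CCAAT is the core recognised by NF-Y, a factor known to act with SREBPs at sterol genes.
Mvk, chr5:114444019-114444318, plus strand: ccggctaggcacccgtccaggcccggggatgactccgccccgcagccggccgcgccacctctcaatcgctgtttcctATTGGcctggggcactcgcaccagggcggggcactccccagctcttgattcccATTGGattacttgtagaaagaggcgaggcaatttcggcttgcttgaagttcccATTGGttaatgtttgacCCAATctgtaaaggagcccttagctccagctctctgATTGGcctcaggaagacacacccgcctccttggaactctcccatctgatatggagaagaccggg
Mvd, chr8:122443373-122443672, minus strand: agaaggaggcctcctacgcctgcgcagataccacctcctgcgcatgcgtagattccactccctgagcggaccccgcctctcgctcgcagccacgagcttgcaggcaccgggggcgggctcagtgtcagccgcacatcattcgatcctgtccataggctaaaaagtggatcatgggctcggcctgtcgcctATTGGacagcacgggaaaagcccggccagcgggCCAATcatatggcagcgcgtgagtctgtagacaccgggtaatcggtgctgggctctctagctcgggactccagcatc
Nsdhl, chrX:72918271-72918570, plus strand: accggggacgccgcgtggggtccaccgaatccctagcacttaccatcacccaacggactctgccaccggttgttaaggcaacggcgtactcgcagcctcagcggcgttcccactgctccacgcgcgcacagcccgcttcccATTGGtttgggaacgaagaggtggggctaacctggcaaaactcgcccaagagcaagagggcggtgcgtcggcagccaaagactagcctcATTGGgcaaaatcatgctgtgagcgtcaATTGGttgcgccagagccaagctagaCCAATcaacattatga
CCAAT on either strand occurred 5 times in the Mvk window, 4 times in that of Nsdhl and 2 times in that of Mvd. It occurred in 7 of the 7 genes with a window and at least 2 times in 5 of them, against 37.4% and 11.7% of all 32851 windows of the same length. A member was counted by its window with the most matches, while the shares count every window, so these measures are not alike. Pmvk had 2 windows, with 1 and 0 matches. GGGCGG, the GC box, occurred in 6 of the 7 genes and in 35.7% of all windows. CACCCCAC, the core of the sterol element that SREBPs bind, was found in 0 of the 7 and in 2.87% of all windows, its looser form TCACNCCAC, which overlaps it, in 0 of the 7 and in 1.24%, and the E-box CACGTG in 0 of the 7 and in 7.15%. These motifs were chosen after the members' values were seen, and a match is a run of letters, not a measured site.

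All 9 enzymes had lower levels in both STZ livers than in both control livers, by 1.77-fold for Lss up to 8.26-fold for Mvd. In STZ+MENS livers 8 of the 9, all but Pmvk, had higher levels than in either STZ liver, by up to 7.05-fold for Mvd. For Idi1 that gap was narrow (log2 14.64 against 14.63). Of all genes, 28.2% had groups apart with STZ below control, and 34.0% with STZ+MENS above STZ. Between STZ+MENS and control livers the members divided. Sqle, Idi1, Nsdhl and Pmvk were lower in both STZ+MENS livers than in either control liver, as were 23.0% of all genes. Fdft1 was higher by a narrow gap (log2 16.53 against 16.50), and Mvk, Mvd, Lss and Msmo1 overlapped. With limma across all genes, 0 of the 9 passed an adjusted p of 0.05 in any comparison. In RNA of whole liver, fewer cells of a type and less RNA per cell cannot be told apart. Levels below are log2(intensity + 50), each the mean of a sample's 2 arrays.

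**Figure D1:**
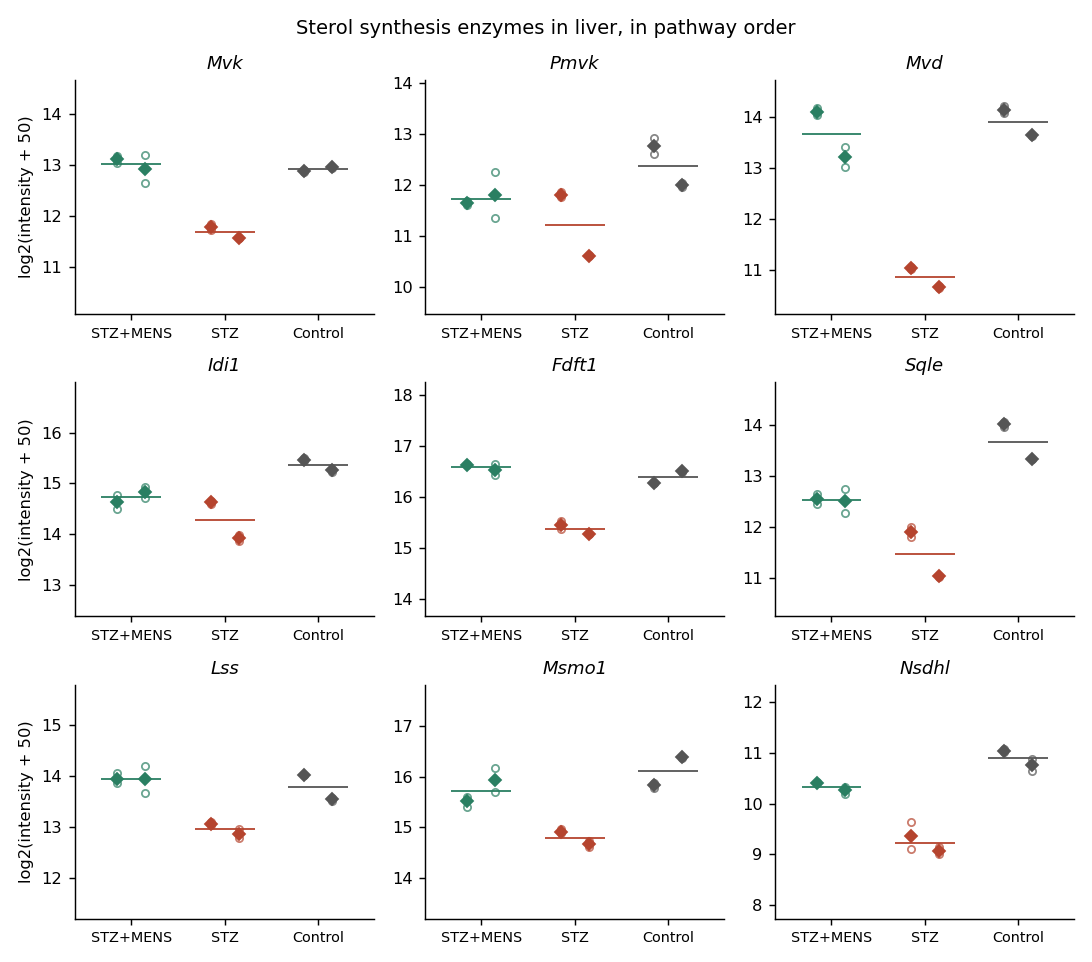
Levels of the 9 enzymes, as log2(intensity + 50), in STZ+MENS, STZ and control livers. Diamonds are liver samples, open circles their 2 arrays and lines the group means; every panel spans the same number of log2 units, and in all 9 the STZ samples lie below the control samples.

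In the mevalonate steps, Mvk, which adds the first phosphate to mevalonate, had levels of 13.11 and 12.92 in STZ+MENS livers, 11.79 and 11.57 in STZ livers and 12.88 and 12.96 in control livers. Both STZ livers lay below the other 4, and the STZ+MENS and control livers overlapped. STZ minus control was -1.24 ± 0.15 (SE; 2.37-fold lower; adjusted p = 0.0674), STZ+MENS minus STZ was 1.33 ± 0.15 (2.52-fold higher; adjusted p = 0.0573), and STZ+MENS minus control was 0.09 ± 0.15 (adjusted p = 0.805), or -0.03 on the first arrays alone and 0.19 without STZ+MENS sample 2. Mvk was the member with the closest control livers, at 12.92 ± 0.05 (SD, n = 2), and the closest to its control level in STZ+MENS livers.

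Pmvk, the kinase that adds the next phosphate, had levels of 11.65 and 11.80 in STZ+MENS livers, 11.81 and 10.61 in STZ livers and 12.77 and 11.99 in control livers. The control livers were the highest, and the level of STZ sample 1 was above both STZ+MENS livers while that of STZ sample 2 was below them. STZ minus control was -1.17 ± 0.43 (adjusted p = 0.249) and STZ+MENS minus STZ was 0.52 ± 0.43 (adjusted p = 0.488), the widest errors among the members. Without STZ sample 2, STZ+MENS minus STZ was -0.08, and without STZ sample 1 it was 1.11, so its sign rests on which STZ liver is used. STZ minus control was -0.57 and -1.77 in the same fits. STZ+MENS minus control was -0.65 ± 0.43 (adjusted p = 0.476), with -0.27 without control sample 1 and -1.04 without control sample 2.

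Mvd, the decarboxylase that yields isopentenyl diphosphate, had levels of 14.11 and 13.22 in STZ+MENS livers, 11.03 and 10.67 in STZ livers and 14.15 and 13.64 in control livers. The STZ livers stood far below the other 4, which overlapped. STZ minus control was -3.05 ± 0.33 (8.26-fold lower; adjusted p = 0.0654) and ranked 5 from the lowest of the 17742 genes. STZ+MENS minus STZ was 2.82 ± 0.33 (7.05-fold higher; adjusted p = 0.0573) and ranked 3 from the highest. The STZ+MENS livers differed from each other by 0.88, the most of any member, and STZ+MENS minus control was -0.23 ± 0.33 (adjusted p = 0.774). That small difference was 0.03 and -0.49 without control sample 1 or 2, and -0.67 and 0.21 without STZ+MENS sample 1 or 2.

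Idi1, the isomerase, had levels of 14.64 and 14.83 in STZ+MENS livers, 14.63 and 13.93 in STZ livers and 15.47 and 15.26 in control livers. The control livers were the highest, and STZ sample 1 lay just under the lower STZ+MENS liver. Its STZ minus control difference was -1.09 ± 0.25 (2.12-fold lower; adjusted p = 0.143), STZ+MENS minus STZ was 0.46 ± 0.25 (1.37-fold higher; adjusted p = 0.304), and STZ+MENS minus control was -0.63 ± 0.25 (adjusted p = 0.264). Idi1 had the smallest difference between STZ+MENS and STZ livers among the 9, and it was 0.11 without STZ sample 2 and 0.80 without STZ sample 1.

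At the entry to sterols, Fdft1, squalene synthase, had levels of 16.63 and 16.53 in STZ+MENS livers, 15.44 and 15.27 in STZ livers and 16.26 and 16.50 in control livers. The STZ livers were the lowest, and the STZ+MENS livers lay narrowly above the control livers. The difference was -1.02 ± 0.16 for STZ minus control (2.03-fold lower; adjusted p = 0.0935), and STZ+MENS minus STZ was 1.22 ± 0.16 (2.34-fold higher; adjusted p = 0.0595). STZ+MENS minus control was 0.20 ± 0.16 (adjusted p = 0.555), the highest of the 9, and became -0.16 when the gene's probes were averaged. It was 0.08 without control sample 1 and 0.32 without control sample 2.

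Sqle, squalene epoxidase, a flux-limiting step of sterol synthesis, had levels of 12.54 and 12.51 in STZ+MENS livers, 11.90 and 11.03 in STZ livers and 14.01 and 13.33 in control livers. The groups did not overlap, with STZ+MENS livers between STZ and control livers. STZ minus control was -2.21 ± 0.34 (4.63-fold lower; adjusted p = 0.0935), and STZ+MENS minus STZ was 1.06 ± 0.34 (2.09-fold higher; adjusted p = 0.127). STZ+MENS minus control was -1.15 ± 0.34 (2.22-fold lower; adjusted p = 0.173), the lowest of the 9 on their brightest probes. Without STZ sample 2, STZ+MENS minus STZ was 0.63 for Sqle, and without STZ sample 1 it was 1.49.

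Among the enzymes that shape the sterol ring, Lss, lanosterol synthase, had levels of 13.95 and 13.94 in STZ+MENS livers, 13.06 and 12.87 in STZ livers and 14.03 and 13.54 in control livers. The STZ livers were the lowest and the other groups overlapped. STZ minus control was -0.82 ± 0.20 (1.77-fold lower; adjusted p = 0.15), the smallest such difference of the 9, and STZ+MENS minus STZ was 0.98 ± 0.20 (1.97-fold higher; adjusted p = 0.0668). STZ+MENS minus control was 0.16 ± 0.20 (adjusted p = 0.726), and 0.40 without control sample 1 and -0.08 without control sample 2.

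Msmo1, a methylsterol oxidase, had levels of 15.51 and 15.94 in STZ+MENS livers, 14.92 and 14.68 in STZ livers and 15.83 and 16.38 in control livers. Again the STZ livers were lowest and the STZ+MENS and control livers overlapped. For Msmo1, STZ minus control was -1.30 ± 0.25 (2.46-fold lower; adjusted p = 0.118), STZ+MENS minus STZ was 0.92 ± 0.25 (1.89-fold higher; adjusted p = 0.0976), and STZ+MENS minus control was -0.38 ± 0.25 (adjusted p = 0.474). With a sample left out this last difference ranged from -0.66 (without control sample 1) to -0.11 (without control sample 2). Leaving out STZ+MENS sample 1 or 2 gave -0.17 or -0.60.

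Nsdhl, a sterol dehydrogenase that acts after Msmo1, had levels of 10.41 and 10.26 in STZ+MENS livers, 9.37 and 9.07 in STZ livers and 11.04 and 10.75 in control livers. As for Sqle, the groups did not overlap and STZ+MENS livers lay between the others. For Nsdhl, STZ minus control was -1.67 ± 0.18 (3.18-fold lower; adjusted p = 0.0654), STZ+MENS minus STZ was 1.11 ± 0.18 (2.16-fold higher; adjusted p = 0.0595), and STZ+MENS minus control was -0.56 ± 0.18 (1.48-fold lower; adjusted p = 0.197).

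For STZ against control, which asks how livers of STZ mice differ from untreated ones, the members' median difference was -1.24 (range -3.05 to -0.82), beside a median of -0.02 over all genes, whose 5th and 95th percentiles were -0.58 and 0.69. At an adjusted p under 0.05, 0 of the 9 members were called, and 0.00564% of all genes (1 gene). At an unadjusted p under 0.05 and lower in STZ, 9 of the 9 members were counted, against 8.49% of all genes, and 3012 genes passed that unadjusted threshold in either direction. Groups that did not overlap, with STZ lower, were found for 9 of the 9 members and 28.2% of all genes. Since the members were chosen on this difference, nothing is read from these counts.

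For STZ+MENS against STZ, which asks how livers of STZ mice differ with and without MENS, the median was 1.06 (range 0.46 to 2.82), beside 0.06 over all genes, whose 5th and 95th percentiles were -0.90 and 0.68. Called at an adjusted p under 0.05 were 0 of the 9 members and 0.0% of all genes. At an unadjusted p under 0.05 and higher in STZ+MENS, 7 of the 9 were counted (not Pmvk and Idi1), against 12.6% of all genes, and 4509 genes passed that unadjusted threshold in either direction. Non-overlap with STZ+MENS higher was found for 8 of the 9 members and 34.0% of all genes. This comparison uses the same STZ livers as the one against control, so the values of each stand side by side and are not set against each other.

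For STZ+MENS against control the median was -0.38 (range -1.15 to 0.20), beside 0.02 over all genes, whose 5th and 95th percentiles were -0.73 and 0.65. Of the 9 members 0 were called, and 0.00564% of all genes. At an unadjusted p under 0.05 and lower in STZ+MENS, 3 of the 9 were counted (Idi1, Sqle and Nsdhl), against 9.18% of all genes, and 3193 genes passed that threshold in either direction. Leaving out control sample 1 left 0 of the 9 so counted, and leaving out STZ+MENS sample 2 left 1. Non-overlap with STZ+MENS lower was found for 4 of the 9 members (Pmvk, Idi1, Sqle and Nsdhl) and 23.0% of all genes. On the brightest probes, Sqle was the only member beyond those percentiles.

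**Figure D2:**
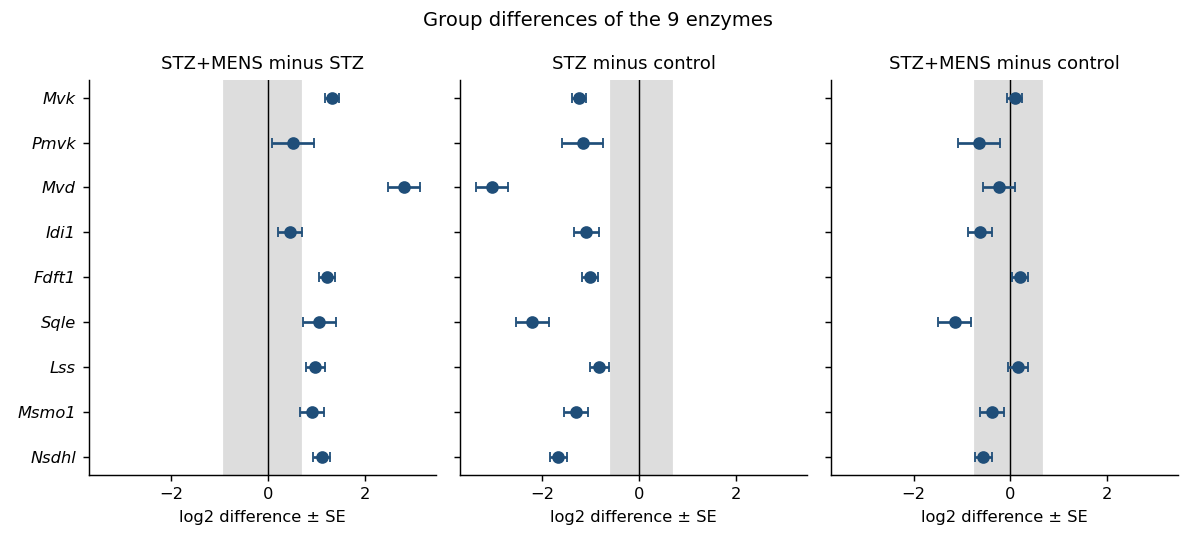
Log2 differences of the 9 enzymes for STZ+MENS minus STZ, STZ minus control and STZ+MENS minus control. Points are limma estimates, bars their standard errors, and the grey band holds the 5th to 95th percentile of all 17742 genes; all 9 lie below the band for STZ minus control, 7 lie above it for STZ+MENS minus STZ, and Sqle lies below it for STZ+MENS minus control.

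How many members were called depended on how the spread was estimated. When the 2 groups of a comparison were fitted alone, Mvk, Mvd and Nsdhl (3 of the 9) passed an adjusted p of 0.05 for STZ against control, where 1.02% of all genes did. That fit called 0 of the 9 for STZ+MENS against STZ (0.0% of all genes) and 0 of the 9 for STZ+MENS against control (0.0113%). A further fit kept all 12 arrays, with the liver sample as a random block, which adds repeat hybridisations and no further samples. In that fit 8 members (all but Pmvk) passed for STZ against control, with 6.79% of all genes. There 7 members (all but Pmvk and Idi1) passed for STZ+MENS against STZ, with 17.4% of all genes, and Sqle (1 of the 9) passed for STZ+MENS against control, with 7.53%. Fits with a sample left out hold 1 sample in a group, which adds nothing to the spread, so their calls are not given.

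The samples of a group were not equal. STZ sample 2 was lower than STZ sample 1 in 9 of the 9 members, by 0.18 for Fdft1 to 1.19 for Pmvk, while 53.8% of all genes were lower in it. STZ+MENS sample 2 was lower than sample 1 in 6 of the 9, and control sample 2 lower than sample 1 in 6 of the 9, where 50.7% and 43.2% of all genes were. The 2 arrays of STZ+MENS sample 2 differed by a median of 0.47 over the members (up to 0.91, for Pmvk) and by 0.19 over all genes. In the other samples these medians were 0.03 to 0.14 over the members and 0.07 to 0.17 over all genes. The part of these gaps in the group differences was not tested. A gene's level was also compared with the mean of the other 8 members over the 6 samples: Pearson's r was lowest for Pmvk (0.797) and highest for Nsdhl (0.987), a description, since the members were chosen for sharing a pattern.

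Fdft1 and Pmvk could be read on further probes, and these did not all repeat the brightest one. The dimmer Fdft1 probe (mean intensity 416.8, against 75179.4) gave 8.72 and 8.78 in STZ+MENS livers, 8.69 and 8.18 in STZ livers and 9.10 and 9.42 in control livers. On it, STZ livers were again below control livers (-0.83 ± 0.22), but STZ+MENS livers were only 0.31 ± 0.22 above STZ livers and lay below both control livers. The next Pmvk probe gave 7.31 and 9.10 in STZ+MENS livers, 10.52 and 8.75 in STZ livers and 11.05 and 10.09 in control livers. The dimmest gave 7.73 and 8.09 in STZ+MENS livers, 8.78 and 8.43 in STZ livers and 9.82 and 9.34 in control livers. All 3 Pmvk probes had a lower mean in STZ than in control livers (-1.17, -0.94 and -0.98), but STZ+MENS minus STZ was -1.43 ± 0.78 on the next and -0.70 ± 0.24 on the dimmest (adjusted p = 0.307 and 0.145). The direction of Pmvk between STZ+MENS and STZ livers thus depended on the probe. STZ+MENS minus control was -0.65 ± 0.43 on the brightest Pmvk probe, -2.37 ± 0.78 on the next and -1.67 ± 0.24 on the dimmest. The values of the dimmer Pmvk probes are below that of Sqle (-1.15 ± 0.34). What sets the probes apart was not tested.

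**Figure D3:**
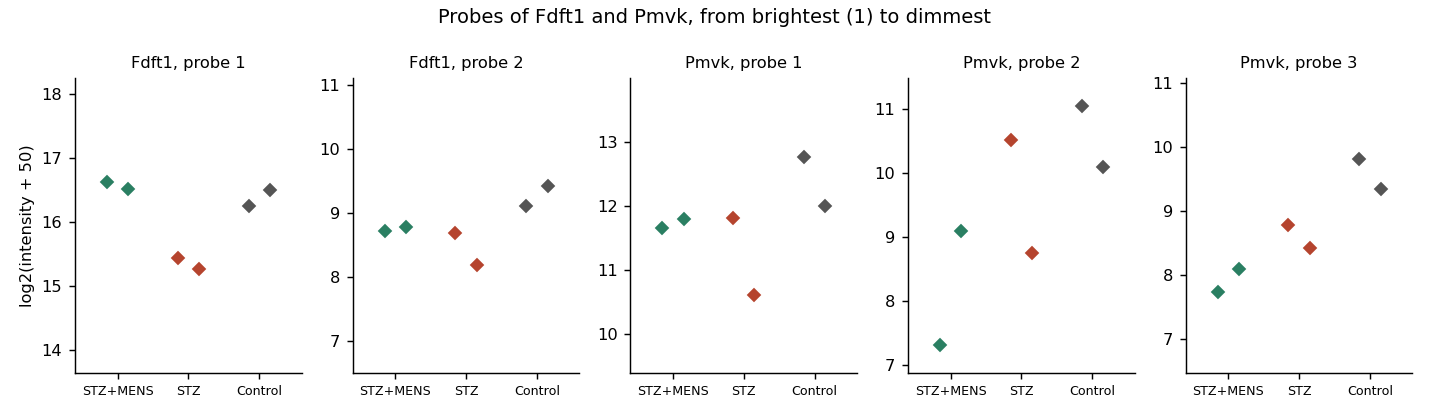
Levels, as log2(intensity + 50), of the 2 Fdft1 probes and the 3 Pmvk probes, from brightest to dimmest, in STZ+MENS, STZ and control livers. Each diamond is a liver sample; the STZ+MENS mean lies above the STZ mean on both Fdft1 probes and the brightest Pmvk probe, and below it on the other 2 Pmvk probes.

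Of 14 other listed genes of the sterol pathway, 9 were measured and the rest were not analysed here. Their median was -0.66 for STZ minus control and 0.33 for STZ+MENS minus STZ, beside -0.02 and 0.06 over all genes. At an unadjusted p under 0.05, 3 were lower in STZ than in control livers (Hsd17b7, Ebp and Erg28, against 8.49% of all genes) and 0 were higher, and 3 were higher in STZ+MENS than in STZ livers (Idi2, Hsd17b7 and Ebp, against 12.6% of all genes) and 0 were lower. None passed an adjusted p of 0.05 in any comparison with limma. Ebp, a sterol isomerase, had levels of 17.96 and 17.75 in STZ+MENS livers, 17.30 and 17.45 in STZ livers and 17.95 and 17.86 in control livers, and Hsd17b7, which acts with Nsdhl, differed by -0.66 ± 0.25 and 0.71 ± 0.25 in these comparisons.

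Other steps of the pathway did not share the members' pattern in each sample. Fdps, which supplies Fdft1 with farnesyl diphosphate, had levels of 9.33 and 10.01 in STZ+MENS livers, 10.68 and 8.47 in STZ livers and 11.33 and 10.56 in control livers. Its STZ livers spanned the range of the STZ+MENS livers, and STZ+MENS minus STZ was 0.09 ± 0.70 (adjusted p = 0.949). Tm7sf2, a sterol reductase, had levels of 11.09 and 12.03 in STZ+MENS livers, 13.02 and 11.60 in STZ livers and 13.31 and 12.92 in control livers, and STZ+MENS minus control was -1.56 ± 0.51 (adjusted p = 0.205). Sc5d and Dhcr7, which act late in the pathway, differed by -0.67 ± 0.44 and -0.80 ± 0.38 between STZ and control livers and by 0.00 ± 0.44 and 0.41 ± 0.38 between STZ+MENS and STZ livers. In each of Fdps, Tm7sf2, Sc5d and Dhcr7, STZ sample 1 lay within or above the range of the STZ+MENS livers. STZ sample 2 lay below both STZ+MENS livers for Fdps and Dhcr7, as for Pmvk, and within their range for Tm7sf2 and Sc5d.

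**Figure D4:**
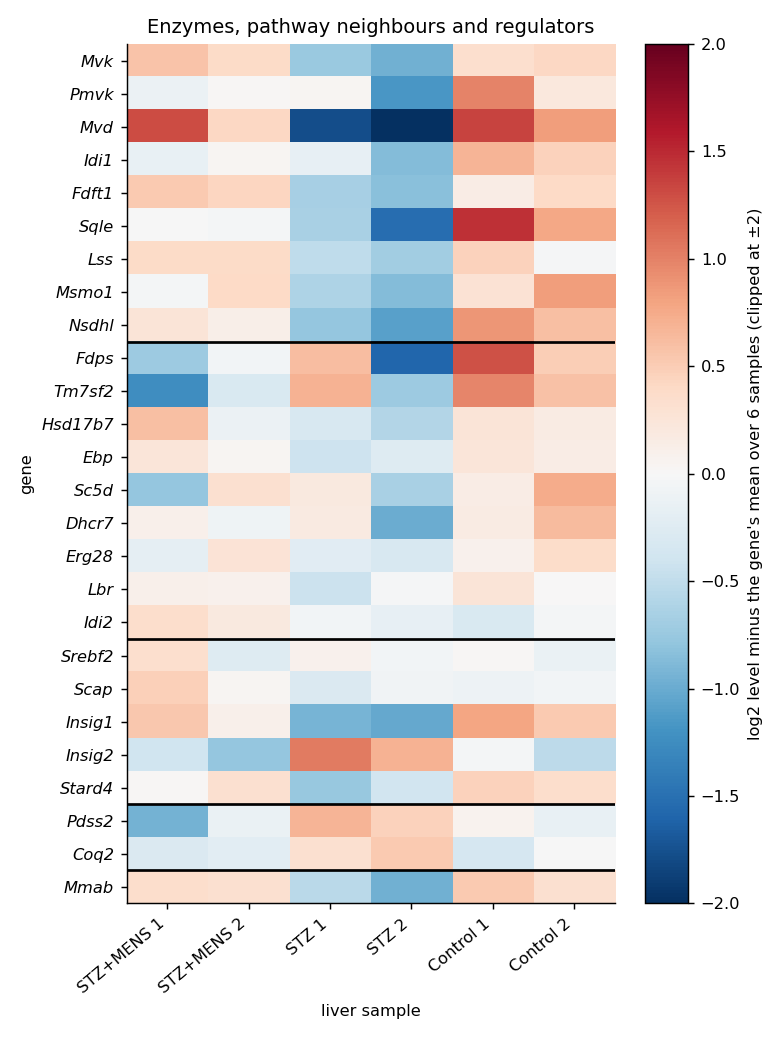
Log2 level minus the gene's mean over the 6 samples (clipped at ±2) in STZ+MENS, STZ and control livers. Rows from top to bottom are the 9 enzymes, other pathway genes, sterol regulators, 2 genes of ubiquinone synthesis and Mmab; the members, Insig1, Stard4 and Mmab are below their means in both STZ samples, apart from Pmvk in STZ sample 1, and Insig2, Pdss2 and Coq2 are above theirs.

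The isoprenoid branches draw on the same intermediates for protein prenylation, dolichol and ubiquinone, and all 11 listed genes were measured. At an unadjusted p under 0.05, 1 was lower (Fntb) and 2 were higher (Pdss1 and Coq2) in STZ than in control livers, 4 were lower (Nus1, Pdss2, Coq2 and Fnta) and 0 higher in STZ+MENS than in STZ livers, and 2 were lower in STZ+MENS than in control livers. Over all genes, 8.49%, 12.8% and 9.18% were lower at that threshold in the same order. The shares higher were 8.48% for STZ minus control and 12.6% for STZ+MENS minus STZ. Of the 11 genes, 0 passed an adjusted p of 0.05. Coq2, which joins the isoprenoid tail to the ubiquinone ring, had levels of 13.39 and 13.47 in STZ+MENS livers, 14.00 and 14.19 in STZ livers and 13.33 and 13.66 in control livers. Its STZ livers were the highest of the 6, the opposite order to the members, with STZ+MENS minus STZ at -0.67 ± 0.17 (adjusted p = 0.089). Pdss2, a subunit of the enzyme that makes the tail, differed by 0.61 ± 0.28 between STZ and control livers and by -1.11 ± 0.28 (adjusted p = 0.0875) between STZ+MENS and STZ livers.

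Among the regulators of the pathway, 11 of 14 listed genes were measured and the rest were not analysed here. Srebf2, which encodes SREBP2, had levels of 11.69 and 11.09 in STZ+MENS livers, 11.44 and 11.29 in STZ livers and 11.38 and 11.22 in control livers, and all 3 groups overlapped. Its differences were 0.06 ± 0.22 for STZ minus control and 0.03 ± 0.22 for STZ+MENS minus STZ; the array measures its transcript, not the cleaved protein. Scap differed by -0.10 ± 0.19 and 0.43 ± 0.19 in the same comparisons.

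Insig1, a sterol sensor that is itself a known SREBP target, had levels of 17.79 and 17.35 in STZ+MENS livers, 16.31 and 16.23 in STZ livers and 18.03 and 17.77 in control livers. Its STZ livers were the lowest, as for the members, with STZ minus control at -1.63 ± 0.20 (adjusted p = 0.0674) and STZ+MENS minus STZ at 1.30 ± 0.20 (adjusted p = 0.0595). Stard4, a sterol carrier and also a known SREBP2 target, had levels of 15.12 and 15.41 in STZ+MENS livers, 14.33 and 14.71 in STZ livers and 15.55 and 15.45 in control livers. Insig2, whose liver transcript insulin is known to lower in rodents, had levels of 14.25 and 13.87 in STZ+MENS livers, 15.69 and 15.35 in STZ livers and 14.61 and 14.12 in control livers. Here the STZ livers were the highest, with STZ minus control at 1.15 ± 0.24 (adjusted p = 0.129) and STZ+MENS minus STZ at -1.46 ± 0.24 (adjusted p = 0.0595). At an unadjusted p under 0.05 the 11 genes held 2 lower and 1 higher in STZ than in control livers, 2 lower (Insig2 and Mbtps2) and 2 higher (Insig1 and Stard4) in STZ+MENS than in STZ livers, and 0 of either kind between STZ+MENS and control livers. Over all genes, 8.49% were lower and 8.48% higher in the first of these comparisons, 12.8% and 12.6% in the next, and 9.18% and 8.82% in the last. No gene of the list passed an adjusted p of 0.05.

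The Mvk window shared 259 bases with that of Mmab, read from the opposite strand, with 241 bases between the annotated starts, and the Nsdhl window shared 276 bases with that of Cetn2, with 176 bases between. Mmab, an enzyme of cobalamin metabolism, had levels of 12.85 and 12.81 in STZ+MENS livers, 11.95 and 11.53 in STZ livers and 13.02 and 12.82 in control livers. Its STZ livers were the lowest, as for Mvk, with STZ minus control at -1.18 ± 0.18 (adjusted p = 0.0982) and STZ+MENS minus STZ at 1.09 ± 0.18 (adjusted p = 0.0595). Cetn2, a centrin, had levels of 11.02 and 10.82 in STZ+MENS livers, 10.72 and 10.81 in STZ livers and 10.83 and 10.75 in control livers, with STZ minus control at -0.02 ± 0.15 and STZ+MENS minus STZ at 0.15 ± 0.15. Its STZ and control livers overlapped, and its STZ+MENS livers lay narrowly above the STZ livers. These neighbours were looked up after the members' values were seen, and a test of Mmab against Cetn2 was not made.

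The genes most like the members were ranked by Pearson's r over the 6 samples with the members' mean. Of the 14525 genes with a mean intensity of at least 200, 13817 were ranked. The 8 of highest r were Tmem176a (0.996), Kars (0.996), Rfxank (0.995), Pnma2 (0.990), Mmab (0.989), Fam43a (0.988), Mpp4 (0.987) and Tas2r117 (0.985). Because r takes no account of size, some of these differences were small: STZ minus control was -0.76 for Tmem176a, -0.52 for Kars and -0.33 for Pnma2, against -1.18 for Mmab. Insig1 ranked 24 (r = 0.974). The 4 of lowest r were Usp38 (-0.994), Gnb1 (-0.993), Pck1 (-0.992) and Pole2 (-0.992), of which Pck1, the gluconeogenic carboxykinase, differed by 0.21 ± 0.13 and Pole2, a DNA polymerase subunit, by 1.68 ± 0.24 between STZ and control livers. These r describe 6 points that share arrays and groups, and the 3 group levels alone can make an r high.

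The labelled tissue was checked against 8 hepatocyte markers, of which 5 were measured, and none was at or below 0 in any sample. Their summed intensity was 1556759 to 1661835 in STZ+MENS, 1595322 to 1746808 in STZ and 1817470 to 1822407 in control livers. Alb, Apoa1 and Ttr differed by at most 0.31 in size in any comparison, while Apob and Cps1 were lower in STZ+MENS than in STZ livers (-2.12 ± 0.51 and -1.27 ± 0.48). Summed pancreatic acinar markers (2 of 4 measured) were 14112 to 19219 in STZ+MENS, 17168 to 21390 in STZ and 39606 to 39915 in control livers. The lower sums of both STZ groups rest on Cela1, at -1.42 ± 0.22 (STZ+MENS) and -1.13 ± 0.22 (STZ) against control. Cpa1, the other marker, differed by only 0.18 and -0.03. Adipocyte markers (4 of 4) summed to 6787 to 9445, 8966 to 12798 and 5451 to 5458 in the same groups, and cholangiocyte markers (5 of 5) to 16265 to 21769, 17468 to 23171 and 15489 to 15802. Both sums were higher in STZ than in control livers, mostly through Fabp4 (1.43 ± 0.31) and Spp1 (0.36 ± 0.29). The dimmer Krt19 (1.25 ± 0.24), Adipoq (0.38 ± 0.15) and Krt7 (0.32 ± 0.26) were also higher in both STZ livers than in the control livers. Plin1 (-0.10), Lep (0.02), Epcam (0.07) and Sox9 (0.03) differed little. The erythroid lineage stood out by its spread in STZ+MENS livers. Its measured markers, Slc4a1 (-2.28 ± 0.72) and Alas2 (-1.02 ± 1.04), were also lower in both STZ livers than in the control livers. Erythroid markers (2 of 5) summed to 9330 to 104836, 32621 to 55363 and 79641 to 95699, and Kupffer cell and macrophage markers (6 of 6) to 33023 to 53251, 29298 to 30708 and 29178 to 33488. Stellate cell and fibroblast markers (5 of 5) summed to 98329 to 134186, 109534 to 121767 and 83110 to 111529, endothelial markers (4 of 5) to 21836 to 25318, 17988 to 21108 and 17988 to 20954, and lymphocyte markers (4 of 5) to 4791 to 5764, 4553 to 4721 and 5408 to 6457. The part of these cells in the members' differences was not tested.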

How the data were processed

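Per the labels' protocols, liver RNA was isolated with TRIzol and its amino allyl aRNA carried Cy5. The deposited values are linear probe intensities that the authors had normalized before deposit: array medians were 768.89 to 770.33, sorted values spanned at most 6.31% of their mean (leaving out the 1000 lowest), the form quantile normalization leaves, and 44 to 52 of 26423 probes per array were below 0, the form background subtraction leaves. How this was done is not given in the sources used here. Per the submitters' processing notes, limma 3.30.7 was among the tools, with no role stated.

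Levels are log2 of the intensity (0 where it was negative) plus 50, a scale that understates differences of dim genes. Platform annotation gave 20377 probes 1 gene symbol and 0 several, and left 6046 without a name here. RefSeq (GRCm38.p6) supplied current names, neighbours and promoter windows: 18213 named probes were current, 2126 were renamed through synonyms, and 38 were left as the platform has them. Each of 17742 genes was read from its brightest probe.

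A sample's 2 arrays were averaged, and limma 3.58.1 (lmFit, eBayes; R 4.3.3) estimated the group means over 6 samples, with 3 residual and 3.19 prior degrees of freedom. Tests were two-sided, with p adjusted by Benjamini-Hochberg over all genes. The script was tested on simulated data. An exact permutation test of 2 against 2 cannot go below 0.33 and was not used. Arrays of a sample correlated at 0.986 to 0.996 across genes and arrays of different groups at 0.958 to 0.985. The number of samples, and of arrays per sample, limits the precision.

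Members, gene lists and tests were chosen with earlier results of these data known. Named were the members, fixed pathway genes, the 2 others of each list with the largest difference between STZ and control, and the most and least alike genes; other names were chosen after their values were seen. Alternatives were the offset, probe choice, a filter on dim genes, renormalization, single arrays, array and replicate blocks, the variance prior, fits of 2 groups and leaving out each sample.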

Additional observations from a re-analysis of the deposited data

How the results depend on the processing

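STZ minus control kept its direction in 153 of 153 recomputed member values, STZ+MENS minus STZ in 151 of 153 and STZ+MENS minus control in 148 of 153. Many of these values could not turn. Probe choice could alter only Fdft1 and Pmvk. STZ and control livers did not overlap for any member, so leaving out 1 sample could not turn that sign. The filter, the blocks, the variance prior, fits of 2 groups and leaving out a sample of the third group left the estimates unchanged in all these comparisons. The members' medians ranged from -1.43 to -1.13, from 0.89 to 1.26 and from -0.53 to -0.27 in these comparisons. With 0 members called at first in each, the liver sample as a random block over all 12 arrays called 8, 7 and 1, a fit of 2 groups alone called 3, 0 and 0, and the second arrays alone called 1 for STZ+MENS minus STZ. Fits with a sample left out hold 1 sample in a group, which adds nothing to the spread, so their calls are not counted here. Over all genes, 1, 0 and 1 were called with all samples, 1204, 3079 and 1336 with the random block, and 181, 0 and 2 in fits of 2 groups. The first arrays alone called 4, 0 and 3 genes and the second arrays alone 0, 30 and 0, and an offset of 200 called 0, 0 and 0. Signs turned for Fdft1 (-0.16) in STZ+MENS minus control and Pmvk (-0.54) in STZ+MENS minus STZ with all probes averaged, and for Mvk in STZ+MENS minus control (-0.03) on the first arrays. With a sample left out they turned for Pmvk in STZ+MENS minus STZ (-0.08 to 1.11) and, in STZ+MENS minus control, for Lss (-0.08 to 0.40) and Mvd (-0.67 to 0.21). The causes were not tested. A replicate block by sample number called 0 members in each comparison, with medians of -1.24, 1.06 and -0.38. Samples of like number did not deviate together (r = 0.005, -0.031 and -0.07) and share only a number. The STZ+MENS minus STZ differences of Pmvk and Idi1 were not separable from the spread between samples at an unadjusted p under 0.05. Those of the other 7 members passed that threshold, but 0 of the 9 passed an adjusted p of 0.05 with limma on all samples. All rest on 2 samples a group, and the members' levels differ between the 2 arrays of STZ+MENS sample 2. The probes of Pmvk disagreed in direction, and the dimmer Fdft1 probe gave only 0.31 ± 0.22.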

Other observations

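Genes of sterol esterification and export were read beside the enzymes, with 6 of 9 listed genes measured and the rest not analysed here. Soat2, which esterifies cholesterol in hepatocytes, had log2 levels of 14.10 and 13.79 in STZ+MENS livers, 13.18 and 13.10 in STZ livers and 13.16 and 13.24 in control livers. Its STZ+MENS livers were the highest of the 6, and its STZ and control livers overlapped, unlike those of any of the 9 enzymes. STZ+MENS minus STZ was 0.81 ± 0.16 (limma, adjusted p = 0.0663) and STZ minus control was -0.06 ± 0.16.

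Abca1, which exports cholesterol to apolipoprotein A-I, had levels of 15.62 and 15.49 in STZ+MENS livers, 15.03 and 15.46 in STZ livers and 16.10 and 15.99 in control livers. Soat1, the more widely expressed esterifying enzyme, had levels of 8.02 and 8.30 in STZ+MENS livers, 8.17 and 8.06 in STZ livers and 9.11 and 8.62 in control livers. In both genes the control livers were the highest, with STZ minus control at -0.79 ± 0.18 for Abca1 and -0.75 ± 0.21 for Soat1 (adjusted p = 0.145 and 0.177). Abcg5 and Abcg8, which together form the exporter of sterols into bile, differed by -0.01 ± 0.19 and -0.08 ± 0.28 between STZ and control livers and by 0.44 ± 0.19 and 0.48 ± 0.28 between STZ+MENS and STZ livers. With 0 of the 6 past an adjusted p of 0.05, the count at an unadjusted p under 0.05 was 2 lower for STZ minus control (8.49% of all genes) and 1 higher for STZ+MENS minus STZ (12.6%). For STZ+MENS minus control, 2 were lower (Abca1 and Soat1, against 9.18% of all genes) and 1 was higher (Soat2, against 8.82%).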
